A study of Zea mays subsp. mays x Zea mays subsp. mexicana with 20 samples.

Results

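Silent loci were chosen by their read counts, as the small RNA loci of the deposited table with a count of 0 in each of the 6 pollen libraries counted. There were 12311 such loci among 85421, or 14.41% of the table, and the other 73110 had at least 1 read. Of the silent loci, 12256 lay on the 10 chromosomes of maize and 55 on unplaced scaffolds. Since the loci were selected on these counts, the counts themselves are a description and were not tested. Lengths, positions and neighbours were not used in the choice. They come from the same table, and a locus is not a replicate, so they are also given as descriptions beside the same values for loci with reads.

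A small RNA locus is a stretch of the genome on which short reads pile up. In plants, most such reads are short interfering RNAs (siRNAs), which Dicer-like proteins cut from double-stranded RNA into fixed sizes. DCL2 makes 22-nt siRNAs, DCL4 and DCL1 make 21-nt siRNAs and microRNAs, and DCL3 makes the 24-nt siRNAs that guide DNA methylation of transposons. In pollen, these classes are made by the vegetative cell and the sperm cells and their precursors, and silence transposons and some genes.

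The libraries came from pollen of 3 maize genotypes, with 2 biological replicates each. The functional allele of *Dcl2* was present in the plants named Dcl2. The dcl2T plants were homozygous for the allele of teosinte *mexicana*, a wild relative of maize, carried on a segment of the short arm of chromosome 5 and separated from linked teosinte sequence by recombination through the female. Both copies of the gene in dcl2-mu1 plants had a *Mu* element inserted in the 5′ leader, backcrossed into the W22 inbred. The series has 20 samples, and 14 of them were not analysed here. The dcl2T plants therefore differed from Dcl2 by a chromosome segment, and the effect of the gene and that of the rest of the segment cannot be told apart. No locus of the table was paired with a gene, so the genotypes were not checked on *Dcl2*, and the table offered no marker of pollen.

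Total counts ranged from 1950081 to 4920576 reads per library and came to 23670998 over the 6 libraries. Absence from all 6 therefore allows a level of up to 0.127 CPM (reads per 1000000 counted), the value of 3 reads in that total. This limit covers counting error only. The limit over the 2 libraries of a genotype was 0.359 CPM in Dcl2, 0.323 CPM in dcl2T and 0.497 CPM in dcl2-mu1. Loci with no read were far more frequent in single libraries than in the table as a whole. In Dcl2 they numbered 40534 and 41349, whereas dcl2T libraries had 29608 and 29652 and dcl2-mu1 libraries 66911 and 45505. The first dcl2-mu1 library stood apart from the other 5, with 78.33% of loci at 0 against 34.66% to 53.27%. It remained so when every library was thinned to the smallest total, where the others had between 43.18% and 57.74% of loci at 0. Leaving that library out added only 248 loci to the silent set, against 1112 to 3197 for each of the other 5 libraries.

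The same 12311 silent loci belong to the undetected set of every genotype, so their share of that set only restates its size. Both libraries of dcl2T lacked reads at 18808 loci, of which 65.46% were silent in all 6 libraries. In Dcl2 the same count was 27989 loci, with 43.99% silent throughout. In dcl2-mu1 it was 41792 loci, with 29.46% silent throughout. Reads in dcl2T alone kept 9276 loci out of the silent set, reads in Dcl2 alone kept out 3588, and reads in dcl2-mu1 alone kept out 1449. The order of these 3 counts follows the order of the summed library totals. With every library thinned to the smallest total, loci with no read were still fewest in dcl2T and most frequent in dcl2-mu1. Their shares were 43.18% and 43.57% in dcl2T, 52.87% and 54.48% in Dcl2, and 78.33% and 57.74% in dcl2-mu1. The 3 counts themselves were not taken again from thinned libraries, so the part of depth in them was not tested.

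The threshold of the rule lay between 0 and 1 read. Just outside it, 2676 loci had a total of 1 read, 2621 had 2 reads and 2436 had 3 reads. Silent loci were 4.60 times as numerous as loci of 1 read, whereas the next counts fell away slowly. Those single reads came from the dcl2T libraries at 968 and 757 loci, from Dcl2 at 380 and 334, and from dcl2-mu1 at 29 and 208. The locus finder of the study was run with a minimum of 5 CPM. In the deposited counts, 19215 loci (22.49%) reached 5 CPM in at least 1 of the 6 libraries, and 53895 of the loci with reads (73.72%) did so in none. The reads that served to define the loci were not given in the sources used here.

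**Figure D1:**
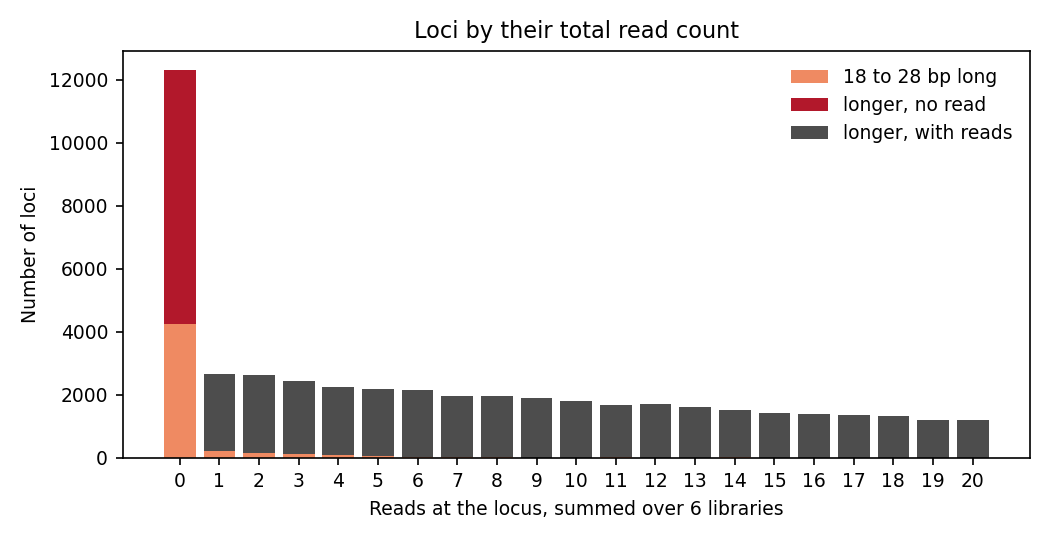
Number of loci (vertical axis) by the number of reads summed over the 6 libraries (horizontal axis, 0 to 20 reads). The bar at 0 holds the 12311 silent loci, and its lower segment the 4247 that were 18 to 28 bp long, a class that takes up little of any other bar.

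Silent loci were short. Their median length was 131 bp and their mean 261 bp, with a range of 18 to 5089 bp. Loci with reads had a median of 918 bp and a mean of 1210 bp, and reached 29671 bp. Length rose with abundance across the whole table. The median was 412 bp for loci of 1 read, 496 bp for those of 1 to 5 reads, 767 bp for those of 6 to 20 reads and 1286 bp for those of more than 20 reads. In all, silent loci made up 14.41% of the loci but 3.51% of the summed length, or 3216102 of 91689199 bp.

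The share of loci that were silent fell with length over most of the range. It was 83.45% for loci of 18 to 28 bp, with a Wilson 95% interval of 82.41% to 84.45%. At 29 to 50 bp it was 48.91%, and at 51 to 100 bp it was 49.27%, with intervals that overlapped. From there it fell to 35.65% for loci over 100 and up to 200 bp, 16.11% over 300 and up to 500 bp and 3.69% over 800 and up to 1200 bp. Above 5000 bp, 1 of 1093 loci was silent. None of the 128 loci longer than 10 kb was silent, which allows a share of up to 2.34%.

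**Figure D2:**
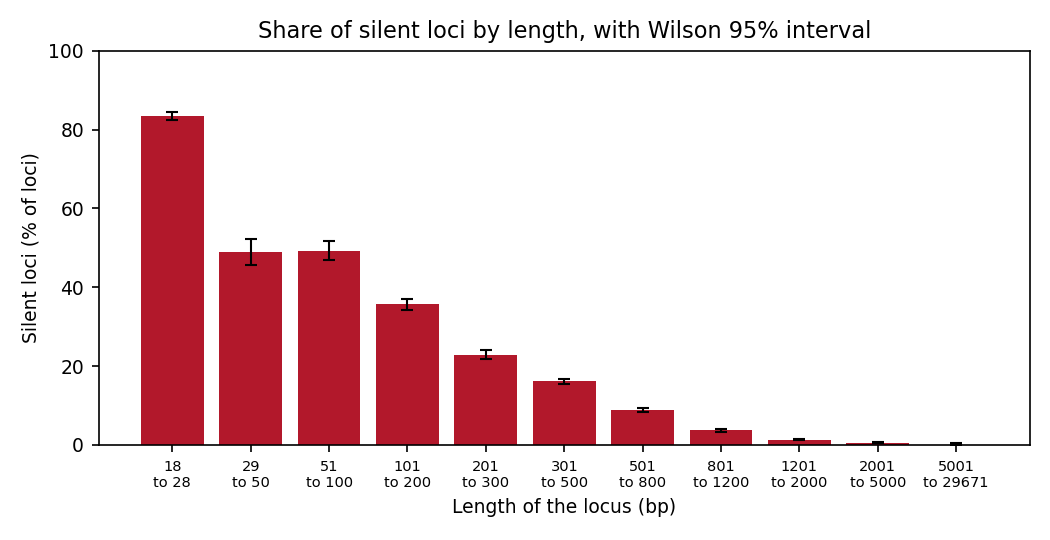
Share of loci that were silent (vertical axis, % of loci of that length) by length of the locus (horizontal axis, bp, classes of unequal width). Bars are the share and whiskers its Wilson 95% interval, and the share fell from 83.45% at 18 to 28 bp to 1 of 1093 loci above 5000 bp.

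A large group of silent loci had the width of 1 siRNA. Loci of 18 to 28 bp, a class set after the lengths had been seen, made up 4247 of the silent loci (34.5%) and 842 of those with reads (1.15%). Among loci of 1 to 5 reads the share was 5.15%. Within this class, lengths of 21 to 24 bp accounted for 3989 silent loci, or 93.93% of the class, and 62 silent loci were 18 to 20 bp long. The most frequent length was 24 bp, the size of siRNAs made by DCL3. It was found at 2832 silent loci, which is 23% of all silent loci, and 84.99% of the 3332 loci of that length were silent. The next was 22 bp, the size made by DCL2, with 670 of 772 loci silent (86.79%). At 23 bp, 366 of 438 loci were silent, and at 21 bp, 121 of 153.

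Loci of siRNA width that did have reads were less numerous and were spread over the sizes in much the same order. Of the 842, 59.38% were 24 bp long and 12.11% were 22 bp long, against 66.68% and 15.78% of the silent loci in the class. There were 4.23 loci of 24 bp for each of 22 bp among the silent, and 4.90 among those with reads. The 500 loci of 24 bp with reads had a median total of 2 reads, and 142 of them had 1 read. The dcl2T libraries had reads at 186 and 157 of them, the Dcl2 libraries at 99 and 98, and the dcl2-mu1 libraries at 21 and 68. The 102 loci of 22 bp with reads were detected 36 and 28 times in dcl2T, 22 and 24 times in Dcl2, and 7 and 16 times in dcl2-mu1. In both sizes the dcl2T libraries lay highest and the dcl2-mu1 libraries lowest, the order that detection had over all loci. The table joins reads of all lengths in 1 count, so the size of the reads at a locus was not measured here.

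**Figure D3:**
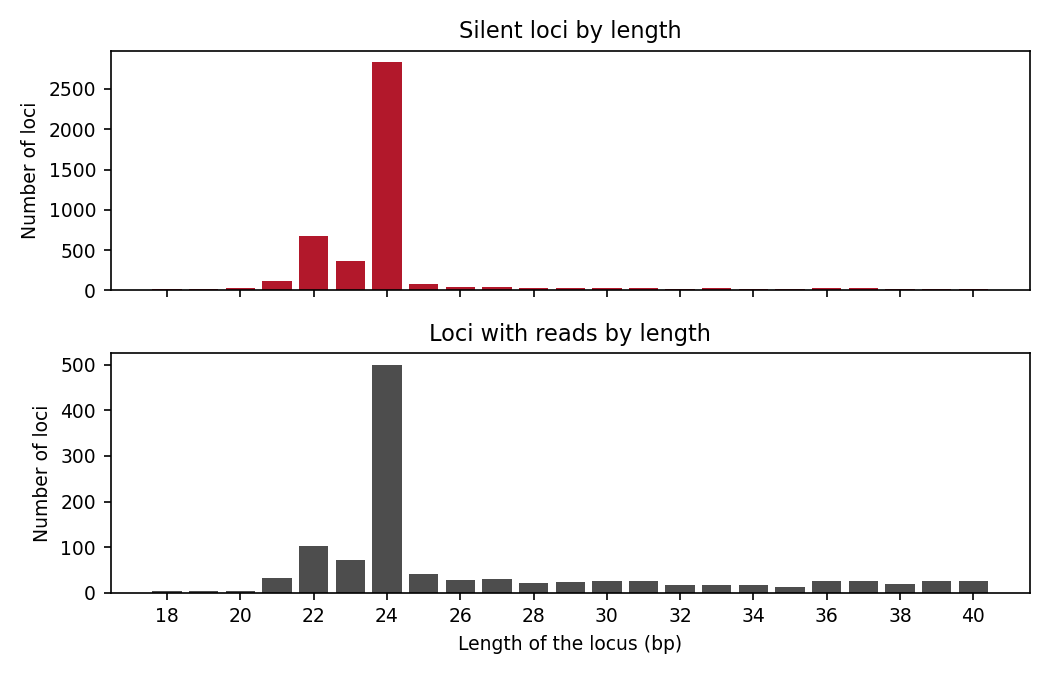
Number of silent loci (upper panel) and of loci with reads (lower panel, with its own vertical scale) by length of the locus from 18 to 40 bp. Both panels peak at 24 bp, with 2832 silent loci and 500 with reads, and have a smaller peak at 22 bp, with 670 and 102.

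The siRNA-width class did not account for the whole difference in length. Without it, the 8064 silent loci had a median of 280 bp, against 929 bp for loci with reads. There were 453 silent loci longer than 1000 bp, or 3.68% of the silent set, against 45.62% of loci with reads.

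The 5 longest silent loci are named here. Cluster_31102, at chr3:223974448-223979536, was 5089 bp long and lay 1760 bp from the nearest locus with reads, which had 2 reads in total. Cluster_55787, at chr6:133603383-133608274, was 4892 bp long, and its nearest locus with reads was 33.3 kb away. Cluster_24721, at chr3:52033278-52037879, was 4602 bp long and lay 518 bp from a locus of 193 bp with 31 reads. Cluster_55566, at chr6:129573077-129576957, was 3881 bp long and lay 689 bp from a locus with 72 reads. Cluster_83464, at chr10:121455262-121458865, was 3604 bp long and lay 1718 bp from a locus with 400 reads. So 4 of the 5 had a locus with reads within 2 kb. The median distance was 9688 bp for silent loci as a whole and 4565 bp for those longer than 1000 bp. Coordinates are those of the deposited table, on a genome build not given in the sources used here, and no annotation was matched to them.

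Silent loci were found on all 10 chromosomes at similar shares. The share ran from 13.6% on chromosome 8 (95% interval 12.84% to 14.4%) to 15.54% on chromosome 7 (14.72% to 16.41%). Per megabase there were 5.48 to 6.06 silent loci and 32.95 to 35.38 loci with reads. The median length of silent loci was 115.5 to 150 bp by chromosome, against 896 to 947 bp for loci with reads, so the 2 ranges did not overlap. Chromosome 5, which carries *Dcl2*, had 1277 silent loci among 8973 (14.23%), and chromosome 10 had 886 among 6061 (14.62%). Between 33.04% and 37.37% of the silent loci of a chromosome were of siRNA width. On the unplaced scaffolds, 55 of 510 loci were silent (10.78%, interval 8.38% to 13.78%). They were found on 38 of the 136 scaffolds, and on 5 of these no locus had reads.

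Along the chromosomes, the number of silent loci varied less than the number of loci with reads. Chromosome position was taken as the share of the distance to the last locus and divided into 20 bins of 5%. Silent loci numbered 536 to 697 per bin over the 10 chromosomes, a ratio of 1.30. Loci with reads numbered 2566 to 5421, a ratio of 2.11, and were most frequent at the ends. The silent share was therefore highest at 40% to 45% of the chromosome, where it was 20.46%, and lowest in the last 5%, where it was 10.07%.

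The outer 10% at each end and the middle 20% were then compared. In the outer 10% at each end 2371 of 21290 loci were silent (11.14%), and in the middle 20% 2593 of 14550 were (17.82%). The share was higher in the middle on 10 of 10 chromosomes. Silent loci had a density of 5.59 per megabase in the outer parts and 6.11 in the middle, and it was higher in the middle on 8 of 10 chromosomes. On the other 2 chromosomes, 4 and 9, the order was reversed. With loci of up to 5 reads counted as silent, the direction turned, and the outer to middle ratio went from 0.91 to 1.12. Loci with reads fell from 44.6 per megabase in the outer parts to 28.19 in the middle, and were less dense in the middle on 10 of 10 chromosomes.

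Short silent loci carried most of the rise in the middle. Silent loci of 24 bp numbered 436 in the outer parts and 697 in the middle 20%, and those of 22 bp numbered 118 and 147. Silent loci longer than 28 bp numbered 1690 and 1606. For silent loci longer than 1000 bp the counts were 121 and 65, an outer to middle ratio of 1.86, and loci with reads of that length had a ratio of 1.78. Compared at similar length, the silent share was 80.31% in the outer parts and 85.45% in the middle at siRNA width, 36.68% and 45.63% at 29 to 200 bp, and 10.34% and 13.24% over 200 and up to 1000 bp. Above 1000 bp it was 1.29% and 1.24%.

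**Figure D4:**
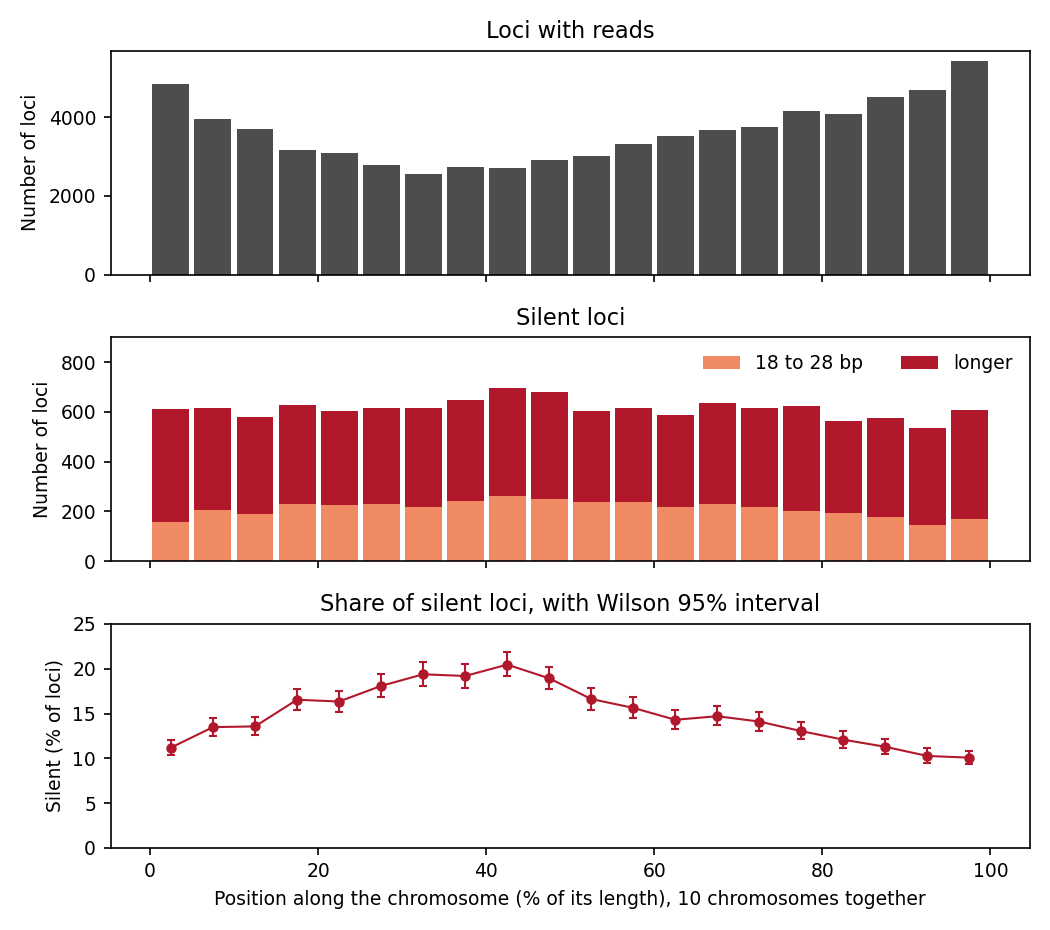
Number of loci with reads (top), number of silent loci split by length (centre) and share of silent loci with its Wilson 95% interval (bottom), in 20 bins along the 10 chromosomes together (horizontal axis, % of chromosome length). Silent loci stayed between 536 and 697 per bin while loci with reads ranged from 2566 to 5421, and the share peaked at 20.46%.

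In windows of 1 Mb the number of silent loci had a variance closer to its mean than the number of loci with reads had. Over 2127 windows there were 5.76 silent loci per window on average, with a variance 1.12 times the mean. For loci with reads the mean was 34.16 and the variance 4.00 times the mean. In the 2075 windows with at least 20 loci, the median share of silent loci was 14.29%, and 5 of these windows held none. The variance of that share was 1.60 times the binomial value. The highest share was 46.43%, in the window at 8 to 9 Mb of chromosome 4, where 13 of 28 loci were silent, with a median length of 33 bp against 419 bp for the loci with reads in it. The next 4 windows had 10 of 22 loci on chromosome 2, 13 of 29 on chromosome 9, and 11 of 25 and 9 of 21 on chromosome 5, all between 42.86% and 45.45%. Their 95% intervals all overlapped, so no order among the 5 windows can be read from these shares.

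Taken over all lengths, silent loci had a silent neighbour more often than loci with reads did. Of the silent loci, 33.13% had another silent locus directly before or after them in order, against 25.34% of loci with reads. The order differed by length. At siRNA width the shares were 34.55% for silent loci and 36.28% for loci with reads, and for longer loci 32.39% and 25.21%. In the middle 20% these shares were 40.57% and 30.13%, and in the outer parts 25.26% and 20.4%. Most silent loci (8195, or 66.87%) stood alone between 2 loci with reads. The rest formed 1423 pairs, 303 runs of 3, 51 runs of 4, 14 runs of 5, 3 runs of 6 and 2 runs of 7.

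The longest runs covered wide stretches with few bases in silent loci. The run from Cluster_16387 to Cluster_16393, at chr2:93636971-93949676, held 7 silent loci over 312.7 kb, whose lengths in order were 24, 223, 24, 280, 1051, 22 and 285 bp. The run from Cluster_73567 to Cluster_73573, at chr9:29765732-30029523, held 7 silent loci over 263.8 kb. Of these, 3 were 22 bp long, 3 were 24 bp long and 1 was 154 bp long. The run from Cluster_34460 to Cluster_34465, at chr4:58391610-58593919, held 6 silent loci over 202.3 kb and was the widest of the 3 runs of 6. Its lengths were 226, 79, 24, 24, 34 and 24 bp. In these stretches the silent loci together covered 1909, 292 and 411 bp.

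Silent loci were farther from loci with reads than those were from each other. Distances were counted from edge to edge. No 2 loci overlapped, and the shortest gap between any 2 loci was 493 bp. The median distance from a silent locus to the nearest locus with reads was 9688 bp, against 3557 bp from a locus with reads to its nearest other locus with reads. By chromosome the medians were 8529 to 11161 bp and 3218 to 3948 bp, and the silent loci were farther on 10 of 10 chromosomes. A locus with reads lay within 1 kb of 9.10% of silent loci and of 22.81% of loci with reads, and farther than 50 kb from 8.53% and 3.84%. Here too the loci of few reads lay between, with a median of 6022 bp for loci of 1 to 5 reads and 2597 bp for those of more than 20.

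The difference in distance was present in each length class but was small at siRNA width. There the medians were 12953 bp for silent loci and 11044 bp for loci with reads. At 29 to 200 bp they were 9701 and 5845 bp, over 200 and up to 500 bp 8232 and 4717 bp, and above 1000 bp 4565 and 2738 bp. Distance to the nearest other silent locus was nearly the same from both kinds of locus, with medians of 57878.5 bp from silent loci and 59398 bp from loci with reads.

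**Figure D5:**
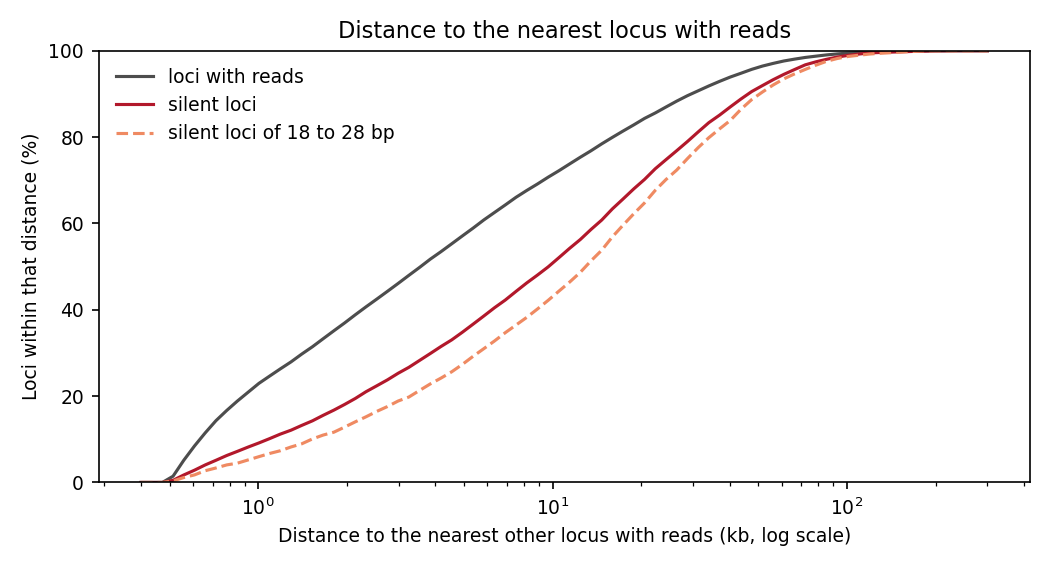
Share of loci (vertical axis, %) that had another locus with reads within a given distance (horizontal axis, kb, log scale), for loci with reads, all silent loci and silent loci of 18 to 28 bp. The medians were 3557 bp for loci with reads, 9688 bp for silent loci and 12953 bp for silent loci of 18 to 28 bp.

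Seen from the loci with reads, the silent loci filled the wider gaps. There were 72645 intervals between successive loci with reads, of which 9988 (13.75%) held a silent locus. The median interval was 53.4 kb where it held one and 8.05 kb where it did not. Of the silent loci, 28.81% lay in intervals of 50 to 100 kb and 29.02% in intervals wider than 100 kb. Counted per megabase of interval, however, silent loci were not denser there. Their density was 8.25 per megabase in intervals of up to 5 kb, 8.44 at 5 to 20 kb, 6.31 at 20 to 50 kb, 5.45 at 50 to 100 kb and 5.47 above 100 kb.

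The 5 silent loci farthest from any read were 195.1 to 230.5 kb from the nearest locus with reads. Cluster_16391, 1051 bp long at chr2:93859542-93860592, was the farthest and is a member of the longest run. Cluster_25810, at chr3:89172864-89173223, and Cluster_25402, at chr3:71578151-71579522, lay 226.7 and 222.2 kb away. Cluster_66573, 44 bp long at chr8:44150922-44150965, lay 205.5 kb away. Cluster_20850, 24 bp long at chr2:211146478-211146501, lay 195.1 kb away. The nearest loci with reads to these 5 had totals of 3, 4, 5, 8 and 17 reads.

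The loci with reads nearest to silent loci were described next. Each had to have a total above 0 in the same counts, which reads in 1 genotype alone could give. Comparisons of their counts are therefore not independent of the rule. There were 10499 such neighbouring loci, 1516 of which were nearest to more than 1 silent locus. They were a little shorter than other loci with reads (median 850 against 929 bp) and had a median total of 18 reads against 21. Together they held 6.73% of all counts. In Dcl2 they took 6.46% and 6.59% of the counts of a library, while dcl2T had 6.65% and 7.15% and dcl2-mu1 had 6.45% and 6.83%. The means were 6.53% ± 0.09 (SD, n = 2), 6.90% ± 0.36 and 6.64% ± 0.27. Both dcl2T libraries lay above both Dcl2 libraries, and dcl2-mu1 overlapped the other genotypes. By exact two-sided permutation tests p was 0.33 for dcl2T against Dcl2, 1 for dcl2-mu1 against Dcl2 and 0.67 for dcl2-mu1 against dcl2T, and 1 for each after adjustment over the 3. The smallest p that 2 against 2 libraries allow is 0.33.

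Silent loci could have highly abundant neighbours. The most abundant locus within 1 kb of a silent one was Cluster_46718, 509 bp from the silent Cluster_46719, which is 20 bp long, at chr5:124176138-124176157. Cluster_46718 had 409 and 627 CPM in Dcl2, 372 and 494 CPM in dcl2T, and 482 and 496 CPM in dcl2-mu1, and the genotypes overlapped. Cluster_84621 lay 1000 bp from Cluster_84622, a silent locus of 24 bp at chr10:144640460-144640483. It had 654 and 556 CPM in Dcl2, 645 and 564 CPM in dcl2T, and 140 and 241 CPM in dcl2-mu1. Its dcl2-mu1 libraries lay below the other 4, but the locus did not reach the thresholds for a call given below. The other 3 of the 5 most abundant were Cluster_69312, Cluster_33311 and Cluster_16303, with means over the 6 libraries of 211.7, 126.3 and 108.3 CPM. They lay 538 to 662 bp from silent loci of 22, 22 and 571 bp.

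Calls between genotypes at the neighbouring loci were rare, as they were over all tested loci. Calls required an edgeR Benjamini-Hochberg adjusted p no higher than 0.01 and a log2 fold change, up or down, no smaller than 2. Of 22558 loci with enough reads to test, 2700 were nearest to a silent locus, and no silent locus could be tested. Between dcl2T and Dcl2, 0.0266% of all tested loci were called, and 1 of the 2700 (0.037%), which was higher in dcl2T. Between dcl2-mu1 and Dcl2, 0.421% of all tested loci were called, and 9 of the 2700 (0.333%), 3 lower and 6 higher in dcl2-mu1. Between dcl2-mu1 and dcl2T, 0.364% of all were called, and 7 of the 2700 (0.259%), 4 lower and 3 higher in dcl2-mu1. The shares among neighbours were thus close to those over all loci. Before adjustment, an edgeR p under 0.05 was reached at 3.7%, 15.7% and 13.4% of neighbours in these comparisons. Over all tested loci the shares were 4.07%, 15.5% and 13.3%. The comparisons share libraries in pairs.

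Few calls were made once a Dcl2 library was left out. Calls of dcl2-mu1 against Dcl2 did not fall when a dcl2T library was left out. Without 1 Dcl2 library the other has no replicate, and the fit assumes that it varies as the other genotypes do. By edgeR, 0 neighbouring loci and 0 of all 22558 loci were then called in the 2 comparisons against Dcl2, whichever Dcl2 library was left out. Median log2 fold changes of the neighbours were then set beside those of all tested loci. For dcl2T against Dcl2 they were 0.155 without Dcl2 replicate 1 and 0.102 without replicate 2, against 0.155 and 0.129 over all loci. For dcl2-mu1 against Dcl2 they were -0.314 and -0.257, against -0.242 and -0.233 over all loci. With dcl2T replicate 1 left out, the median for dcl2T against Dcl2 was 0.0384 at neighbours and 0.0391 over all loci. Between dcl2-mu1 and dcl2T, 2 neighbours (0.0741%) were called without either Dcl2 library, against 0.0665% and 0.0621% of all loci. Without dcl2T replicate 1 they were 3 (0.111%), against 0.173% of all loci. DESeq2, run on all 6 libraries, called 14 neighbours (0.519%), 75 (2.78%) and 44 (1.63%) in the 3 comparisons, against 0.567%, 3.07% and 1.95% of all loci.

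Of the called neighbours that the naming rule took, 1 lay beside a silent locus named above. Beside the silent Cluster_83464, among the 5 longest, lay Cluster_83463, at chr10:121449773-121453543. It had 14.6 and 19.4 CPM in Dcl2, 23.2 and 31.7 CPM in dcl2T, and no read in either dcl2-mu1 library. Against the limit of 3 counts over those 2 libraries it was at least 34.2-fold lower in dcl2-mu1 than in Dcl2 (edgeR quasi-likelihood test, Benjamini-Hochberg adjusted p = 0.00651). The edgeR Benjamini-Hochberg adjusted p rose to 0.0875 without Dcl2 replicate 1 and 0.0957 without replicate 2, and was 0.00942 to 0.014 with another library left out. The fitted log2 fold change, whose size depends on the prior count at a group without reads, was -9.21 with all libraries and -9.43 and -9.11 without either Dcl2 library. The silent locus thus lay 1718 bp from a locus that lacked reads in dcl2-mu1 and had them in the other 4 libraries.

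Cluster_2445, at chr1:53114841-53116920, lay 1829 bp from Cluster_2444, a silent locus of 24 bp at chr1:53112988-53113011. It had 5.04 and 5.69 CPM in Dcl2 and 129 and 126 CPM in dcl2T, which is 4.41 ± 0.36 (SE) as a log2 fold change, at an edgeR Benjamini-Hochberg adjusted p of 0.00472. The edgeR Benjamini-Hochberg adjusted p was 0.296 and 0.397 without either Dcl2 library, where the log2 fold change was 4.35 and 4.38, and 0.0137 without dcl2T replicate 1, where it was 4.34. In dcl2-mu1 the same locus had 231 and 169 CPM. Cluster_9026, at chr1:228149708-228151325, was the nearest locus with reads to 3 silent loci, Cluster_9023, Cluster_9024 and Cluster_9025, at 35.6, 26.5 and 1.10 kb. It had 222 and 70.1 CPM in dcl2T, 0 and 0.23 CPM in Dcl2, and no read in dcl2-mu1. In dcl2-mu1 it was at least 294.1-fold lower than in dcl2T (edgeR, Benjamini-Hochberg adjusted p = 0.00494). It had enough reads to be tested only through dcl2T, the genotype where it was high, so this call is a description. Leaving out a single library gave edgeR Benjamini-Hochberg adjusted p values of 0.0139 to 0.0421 for it in 5 of 6 cases, and 0.000665 without dcl2T replicate 2.

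The other called neighbours named here lay 5.24 to 41.9 kb from their silent locus. Cluster_62508, at chr7:133160491-133163018, lay 35.3 kb from the silent Cluster_62507 and had 10.6 and 11.8 CPM in Dcl2, and 1912 and 1354 CPM in dcl2-mu1. The difference was 6.79 ± 0.35 (SE) on the log2 scale, at an edgeR Benjamini-Hochberg adjusted p of 9.78e-05, which was 0.0208 and 0.0202 without either Dcl2 library, at log2 fold changes of 6.66 and 6.68. Cluster_81927, at chr10:85381796-85385385, lay 41.9 kb from the silent Cluster_81926. It had 1305 and 1842 CPM in Dcl2, 1488 and 1546 CPM in dcl2T, and 147 and 145 CPM in dcl2-mu1, and was called in both comparisons of dcl2-mu1, with log2 fold changes of -3.78 against Dcl2 and -3.58 against dcl2T. Cluster_65745, 14.1 kb from the silent Cluster_65746 on chromosome 8, had 96.6 and 110 CPM in Dcl2, 67.7 and 73.8 CPM in dcl2T, and no read in dcl2-mu1. Cluster_35266 and Cluster_79685 were higher in dcl2-mu1 than in both other genotypes, with log2 fold changes against Dcl2 of 5.48 and 4.13. For Cluster_81927, Cluster_65745, Cluster_35266 and Cluster_79685 the edgeR Benjamini-Hochberg adjusted p against Dcl2 was 0.000487, 3e-04, 0.00164 and 0.00101. Without either Dcl2 library their log2 fold changes were -4.055 and -3.696, -11.93 and -11.84, 6.272 and 4.814, and 3.816 and 4.251. The limit given above for fits without a Dcl2 library applies to these loci too.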

How the data were processed

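Adapters and random identifier bases were trimmed with cutadapt and structural RNA reads were removed with bowtie2 by the authors, who found loci with ShortStack. Raw read counts per locus and library were deposited, with all read lengths together. A further deposited column is the authors' sum over the 6 libraries. The genome build and the reads that defined the loci are not given in the sources used here. No sequence of a locus was read.

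Silent loci were counted with Python 3.11.15, numpy 2.4.6, pandas 2.3.3 and scipy 1.17.1. CPM used the total count of a library. Wilson intervals cover counting error only. Loci with reads were compared between genotypes in R 4.3.3 with edgeR 4.0.16 (quasi-likelihood, TMM, filterByExpr with a minimum count of 10, all 6 libraries, Benjamini-Hochberg adjustment over 22558 loci). Standard errors are approximate. The code was tested on simulated data.

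Silent loci, lists and tests were chosen with earlier results of these data known. Named were the 5 longest and the 5 farthest silent loci, the 3 longest runs, the 5 windows of 1 Mb with the highest share, the 5 most abundant neighbours within 1 kb, and called neighbours, up to 3 per comparison and direction by mean CPM. Alternatives were a total of up to 1 or 5 reads, thinned libraries, other distances and ends, RLE factors, DESeq2 1.42.0, no filter, a replicate block and each library left out.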

Additional observations from a re-analysis of the deposited data

How the results depend on the processing

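With loci of up to 1 read, up to 5 reads, or libraries thinned to 1950081 reads, the share of silent loci was 17.54%, 28.67% and 18.13%, and the median length 171, 304 and 185 bp. The share in the outer 10% at each end was 14.07%, 25.03% and 14.65%, and that with a silent neighbour 38.98%, 54.89% and 39.86%. The share within 1 kb of a locus with reads was 10.23% with up to 5 reads and 9.65% when thinned. Leaving out 1 library gave 14.7% to 18.15%, 135 to 188 bp, 11.39% to 14.65%, 33.68% to 39.17% and 9.21% to 9.69% for these values, the silent share being highest without dcl2T replicate 1. Silent loci stayed shorter and farther away than the rest under all 10 rules, but their outer to middle ratio went from 0.91 to 1.12 with up to 5 reads. The share near a locus with reads was 0.0653% within 500 bp and 35.1% within 5 kb, the outer share 10.6% in the outer 5% at each end, and that with a silent neighbour within 10 kb 11.05%.

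For dcl2T against Dcl2, dcl2-mu1 against Dcl2 and dcl2-mu1 against dcl2T, calls among neighbouring loci were 1, 9 and 7. By DESeq2 they were 14, 75 and 44. With RLE factors they were 1, 11 and 7 (0.037%, 0.407% and 0.259% of neighbours, against 0.0266%, 0.47% and 0.368% of all loci). Without the filter they were 20, 61 and 40 (0.19%, 0.581% and 0.381%, against 0.202%, 0.676% and 0.486%). Leaving out 1 library gave 0 to 2, 0 to 13 and 2 to 6, with fewer samples in the fit. The cause of the other differences was not tested. Replicate numbers did not pair the libraries (correlations of 0.0044, -0.0081 and -0.0122), and with a replicate block the calls were 2, 21 and 11 (0.0741%, 0.778% and 0.407%, against 0.0931%, 0.909% and 0.643%). The shares of counts at neighbouring loci differed by 0.376, 0.112 and -0.264 percentage points. Pairing by replicate number cannot change these differences of means, so it was no check on them. With 1 library left out the differences ranged from 0.124 to 0.627, -0.08205 to 0.306 and -0.515 to -0.0123. The negative value for dcl2-mu1 against Dcl2 came without dcl2-mu1 replicate 2. Depth limits what silence means, since a locus under 0.127 CPM could have been missed.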
